A study of Mus musculus with 6 samples.

Results

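A set of 10 genes of the transforming growth factor beta (TGF-β) system was examined in bone marrow mesenchymal stem cells (BMMSCs) after knockdown of Tet1 and Tet2, the enzymes that oxidise 5-methylcytosine. They were taken by symbol: the ligands Tgfb1, Tgfb2 and Tgfb3, the receptors Tgfbr1, Tgfbr2, Tgfbr3 and Eng, and the latent TGF-β binding proteins Ltbp1, Ltbp2 and Ltbp3. All 10 were found among the 36870 distinct symbols of the table and were among the 13266 genes tested. TGF-β is secreted in a latent form, held by its own propeptide and often tied to a latent binding protein that anchors it in the matrix, and is released there by integrins, proteases and thrombospondin. The freed ligand brings the type II receptor Tgfbr2 and the type I receptor Tgfbr1 together, and the type I receptor phosphorylates the transcription regulators Smad2 and Smad3, which enter the nucleus with Smad4. In bone, TGF-β stored in matrix is known to act on stromal and osteoblast-lineage cells and to couple resorption with formation.

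RNA-sequencing (RNA-seq) was performed on adherent cells from the marrow of femurs and tibias of C57BL/6 mice, which the labels give as passage 2 and the methods as an earlier passage. Cells that had not attached were removed at 48 h, and culture then went on for 14 days. The control group comprised 3 libraries (non-targeting siRNA by the labels' protocol, vehicle by the RNA-seq methods), and the other group comprised 3 libraries from cells that received siRNAs against both Tet1 and Tet2. The mice's age and whether the 3 libraries of a group came from separate mice or cultures are not given in the sources used here, so p-values measure only the spread between these libraries, which may be technical.

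Levels are in RPKM, in which the reads of a gene are scaled to its length and to library size, so levels are compared between genes per length. Differences are log2 fold changes of RPKM plus a pseudocount of 1, siRNA minus control, from limma, with p-values adjusted by the Benjamini-Hochberg method over all genes tested, and a gene was called lower or higher at an adjusted p under 0.05. The table gives no read totals. From the spacing of its low values the libraries were estimated to hold between 32400000 and 38600000 reads, an estimate only, since the depth was chosen for its match. With the longest annotated transcript of each gene, the fewest reads behind a value of the 10 genes were then about 168, for Tgfb2 in siRNA replicate 2.

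The knockdown and the cell type were checked first. Tet2 was at 2.57, 4.08 and 3.71 RPKM in controls and at 0.358, 0.238 and 0.202 RPKM in the siRNA libraries. Tet1 was too low to be tested, at 0.032, 0.098 and 0.05 RPKM in controls and 0.001, 0.01 and 0.001 RPKM after siRNA, where 0.001 is the lowest value listed. Tet3, which was not targeted, averaged 7.03 RPKM in the control and 7.66 RPKM in the siRNA libraries (log2 fold change 0.12, adjusted p = 0.508 from limma). Both targeted genes were thus lower in every siRNA library than in any control library.

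Markers of bone marrow stroma and of macrophages were both present. Of 14 stromal markers, Pdgfra averaged 9.92 RPKM and Cxcl12 38.9 RPKM in the control libraries, whereas 3 did not reach a mean of 0.1 RPKM in either group, namely Thy1 (CD90), Lepr and Lum. Of 18 macrophage markers all were expressed, and Lyz2, the most abundant, averaged 4439 RPKM in the control and 11321 RPKM in the siRNA libraries. Transcripts of both cell types were thus present in all 6 libraries. Among markers that the paper followed as protein, Ptprc (CD45), reported as negative, averaged 52.6 RPKM in the control libraries. Of those reported as positive, Nt5e (CD73) averaged 0.911, Mcam (CD146) 1.31, Ly6a (Sca1) 152.2 and Eng (CD105) 23.8 RPKM there. Ptprc, Nt5e and Mcam are given by level only, and were named after their values had been seen. RNA and surface protein are unlike measures.

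The marker lists also differed between the groups. The summed stromal markers were at 349.9, 311.5 and 336.6 RPKM in controls and at 88.1, 104.5 and 112.4 RPKM in the siRNA libraries. Without Ly6a, the most abundant by the mean of both group means, the fall was smaller. The other 13 genes summed to 182.0, 155.5 and 204.1 RPKM in controls and 78.6, 85.3 and 91.9 RPKM in the siRNA libraries. Of the 11 stromal markers tested, 8 were lower and 1 was higher, beside 29.8% lower and 14.7% higher over all genes tested. The median log2 fold change of the 11 markers was -1.54, beside -0.087 over all genes tested. The gene that was higher was that of the adhesion molecule Vcam1, named after its value had been seen. Vcam1 averaged 16.9 RPKM in the control and 55.9 RPKM in the siRNA libraries, where Ly6a averaged 16.4 RPKM. Its rise is part of the sum without Ly6a and makes the fall of that sum smaller. The summed macrophage markers were at 12494, 11707 and 9483 RPKM in the control and at 21161, 20027 and 18012 RPKM in the siRNA libraries, with 7 of 18 genes higher, 3 lower and 8 not called. The shares over all genes tested were again 14.7% higher and 29.8% lower, and the median log2 fold change of the 18 genes was 0.20 beside -0.087. Without Lyz2 the other 17 genes summed to 7480, 6950 and 5935 RPKM in the control and 8434, 8635 and 8170 RPKM in the siRNA libraries. Within that list Lyz2 and Tyrobp rose, by 1.36 and 1.35 on the log2 scale (for Lyz2 0.056 and not called with quantile normalization, adjusted p = 0.455), while the Fc receptor gene Fcgr1 fell by 1.93 on the log2 scale. The part of these marker changes in the results for the TGF-β genes was not tested, and in bulk RNA fewer cells of a type and less RNA per cell cannot be told apart.

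Of the 10 TGF-β genes, 6 fell, 2 rose and 2 did not pass the test. Over all genes tested, 44.5% were called, 29.8% lower and 14.7% higher, so that 66.9% of the called genes were lower, a share that was 74.1% with every library rescaled to the same sum, 50.9% under median ratio scaling and 42.1% under quantile normalization. The genes that fell were Tgfb2, Tgfb3, Tgfbr3, Ltbp1, Ltbp2 and Eng, and those that rose were Tgfb1 and Tgfbr1. When a change of more than 2-fold on the log2 scale was also required, at an unadjusted p under 0.05 in limma, 5 of the 10 genes were lower (5.63% of all genes tested) and 0 were higher (0.95% of all genes tested), beside 2 higher at an unadjusted p under 0.05 alone. The median log2 fold change of the 10 genes was -0.81, and that of all genes tested was -0.087. In 6 genes every siRNA library was below every control library (35.9% of all genes tested) and in 2 genes every siRNA library was above (19.8% of all genes tested).

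**Figure D1:**
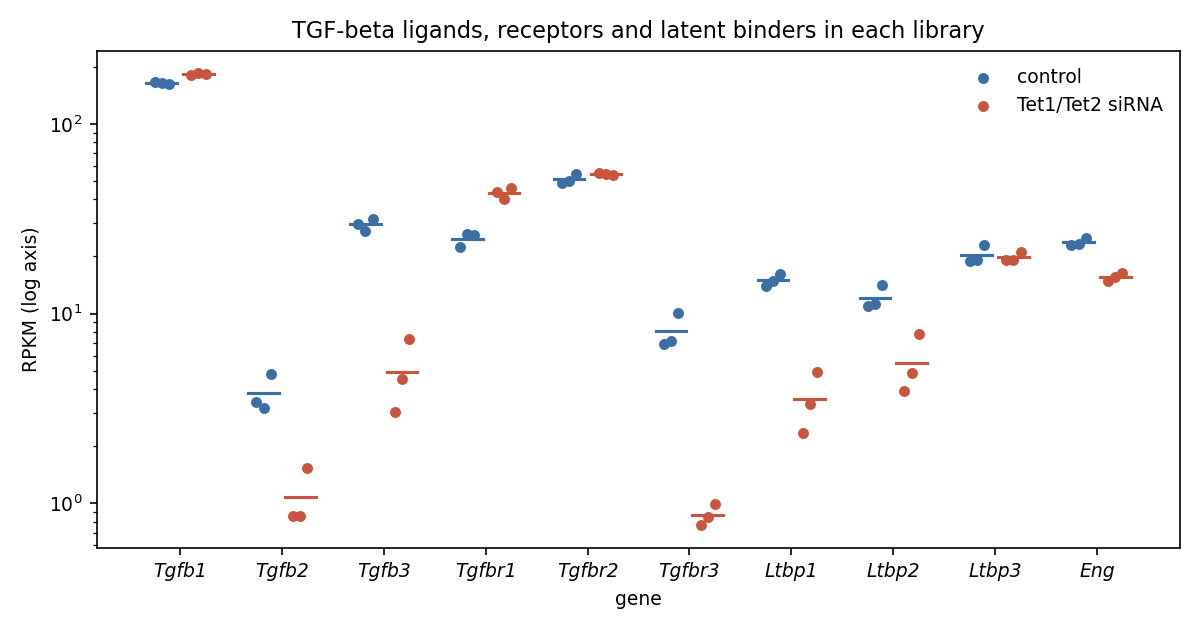
RPKM (log axis) of the 10 TGF-β genes in the 3 control (blue) and 3 Tet1/Tet2 siRNA (red) libraries, with points for libraries and short lines for group means. The groups do not overlap for Tgfb2, Tgfb3, Tgfbr3, Ltbp1, Ltbp2 and Eng (lower) or for Tgfb1 and Tgfbr1 (higher), and overlap for Tgfbr2 and Ltbp3.

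Among the ligands, Tgfb3 fell most. Tgfb3 lies on chromosome 12 of GRCm38 from 86056745 to 86079041 and is a ligand best known from palate development. It was at 29.6, 27.4 and 31.6 RPKM in controls and at 3.02, 4.51 and 7.31 RPKM in the siRNA libraries. The groups were far apart, and siRNA replicate 3 was the highest of its group. On average Tgfb3 was 5.97-fold lower, and limma gave a log2 fold change of -2.42 (SE 0.22, adjusted p = 8.18e-05).

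Tgfb2, which needs the coreceptor Tgfbr3 for efficient binding to the type II receptor, was the least abundant ligand. It lies on chromosome 1 from 186622792 to 186705989. Its level was 3.42, 3.18 and 4.82 RPKM in the control libraries and 0.859, 0.853 and 1.54 RPKM in the siRNA libraries. All siRNA libraries were below all control libraries, with a 3.51-fold difference of the means, and limma gave a log2 fold change of -1.21 (SE 0.17, adjusted p = 0.0006), which the pseudocount makes smaller at levels near 1 RPKM. With a pseudocount of 0.01 it was -1.84.

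Tgfb1, the main ligand stored in bone matrix and also made by macrophages, was by far the most abundant of the 10 genes. It lies on chromosome 7 from 25687002 to 25705077. Its level was 166.7, 164.4 and 161.5 RPKM in the control and 181.2, 184.5 and 184.2 RPKM in the siRNA libraries. The groups did not overlap, but the difference was small, 1.12-fold, and limma gave a log2 fold change of 0.16 (SE 0.05, adjusted p = 0.0452). The call of Tgfb1 was lost in 7 of 17 alternative fits, over which the adjusted p ranged from 0.00661 to 0.188. These were the fits without control replicate 1 (0.0632), control replicate 2 (0.127), siRNA replicate 1 (0.111), siRNA replicate 2 (0.146) or siRNA replicate 3 (0.118), without a trend in the variance (0.0683), and with every library rescaled to the same sum (0.188). Its log2 fold change was between 0.15 and 0.17 when 1 library was left out, 0.095 with every library rescaled to the same sum and 0.28 under median ratio scaling.

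The mixture of ligand transcripts shifted while their sum fell slightly. Tgfb1, Tgfb2 and Tgfb3 together summed to 197.6 ± 2.45 RPKM (SD, n = 3) in the control group and 189.3 ± 4.01 RPKM (SD, n = 3) in the siRNA group. The sum was between 195.0 and 199.8 RPKM in the control and between 185.0 and 193.0 RPKM in the siRNA libraries, so the groups did not overlap. Tgfb3 made up 14.8%, 14.0% and 15.9% of that sum in the control libraries and 1.63%, 2.38% and 3.79% in the siRNA libraries. Tgfb1 accounted for most of the rest, with a mean share of 83.1% in the control and 96.8% in the siRNA libraries. The ratio of Tgfb1 to Tgfb3 was thus between 5.12 and 6.00 in the control libraries and between 25.2 and 60.0 in the siRNA libraries.

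**Figure D2:**
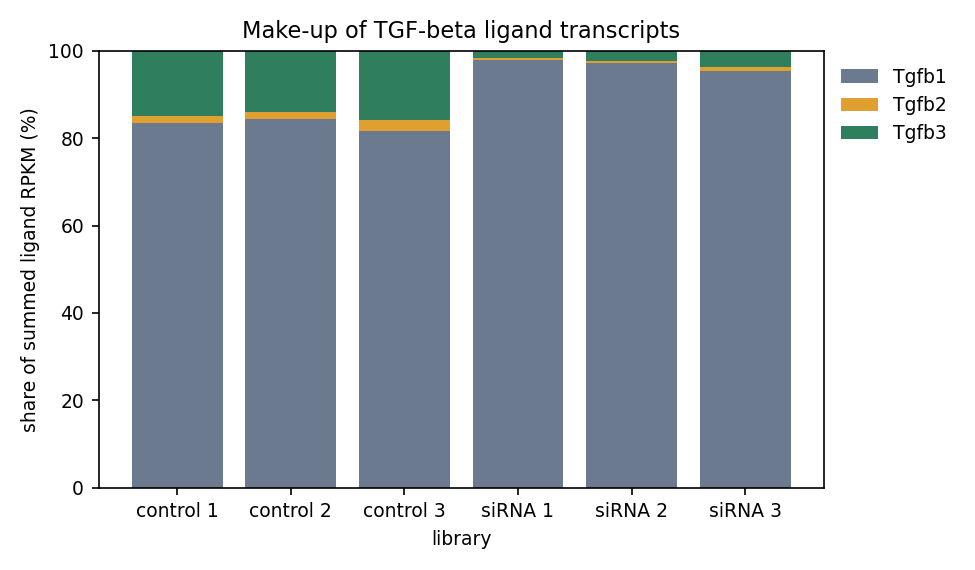
Share of the summed RPKM of Tgfb1, Tgfb2 and Tgfb3 taken by each ligand (%) in each of the 6 libraries. Tgfb1 took between 81.6% and 84.3% in the control libraries and between 95.4% and 97.9% in the siRNA libraries.

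The receptors moved apart from each other. Tgfbr1, the type I receptor kinase ALK5 on chromosome 4 from 47353222 to 47414931, was at 22.4, 26.2 and 26.1 RPKM in the control and at 43.6, 39.9 and 45.9 RPKM in the siRNA libraries. It rose in every siRNA library relative to every control library. The means differed 1.73-fold and limma gave a log2 fold change of 0.77 (SE 0.08, adjusted p = 0.000169).

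Tgfbr2, the type II receptor that binds the ligand first, lies on chromosome 9 from 116084293 to 116175360. It was at 48.7, 50.1 and 54.4 RPKM in the control and at 54.9, 54.2 and 54.0 RPKM in the siRNA libraries. The groups overlapped at control replicate 3. Its log2 fold change of 0.090 (95% interval -0.049 to 0.23, adjusted p = 0.257 from limma) did not pass the test. It was called higher without control replicate 3 (log2 fold change 0.14, adjusted p = 0.0493) and with median ratio scaling (log2 fold change 0.21, adjusted p = 0.0268), while its adjusted p over 17 alternatives reached 0.801. With Tgfbr1 higher, the ratio of Tgfbr1 to Tgfbr2 went from 0.487 ± 0.0328 (SD, n = 3) to 0.794 ± 0.0565 (SD, n = 3).

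Tgfbr3, betaglycan, a membrane proteoglycan that presents ligand to the signalling receptors, showed the largest fold difference of the 10 genes as a ratio of means. It lies on chromosome 5 from 107106570 to 107289629. Its level was 6.91, 7.21 and 10.1 RPKM in the control libraries and 0.767, 0.848 and 0.987 RPKM in the siRNA libraries. The highest siRNA library was well below the lowest control library. The means differed 9.31-fold, and the log2 fold change of -2.27 (SE 0.14, adjusted p = 1.14e-05 from limma) understates this, because the pseudocount weighs on levels near 1 RPKM. With a pseudocount of 0.01 it was -3.19.

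Eng encodes endoglin, or CD105, an accessory receptor abundant on endothelial cells and a surface marker by which BMMSCs are recognised. It lies on chromosome 2 from 32646595 to 32682669. Its level was 23.0, 23.3 and 24.9 RPKM in the control and 14.9, 15.6 and 16.5 RPKM in the siRNA libraries. The replicates were tight and the groups separate, with means 1.52-fold apart, and limma gave a log2 fold change of -0.57 (SE 0.07, adjusted p = 0.000273). Endothelial markers were low in all libraries. Summed over 12 genes they were between 5.33 and 6.37 RPKM in the control and between 8.42 and 9.14 RPKM in the siRNA libraries, and 5 of them, Tek, Tie1, Cldn5, Robo4 and Sox17, were under 0.1 RPKM in every library. Without Vwf, the most abundant, the sum was lower in the siRNA libraries, between 2.44 and 2.86 RPKM against 3.50 to 4.21 RPKM in the control. Vwf rose from a mean of 1.93 to 6.10 RPKM, Esam rose from 0.156 to 0.409 RPKM, and Kdr fell from 1.58 to 0.604 RPKM. The call of Esam was lost without siRNA replicate 1 (adjusted p = 0.0502 from limma), and the lowest over its alternatives was 0.0036. Of the 7 endothelial markers tested, 3 were higher, 2 were lower and 2 were not called, where 14.7% of all genes tested were higher and 29.8% lower, and their part in the change of Eng was not tested.

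The latent binding proteins differed among themselves. Ltbp1, which links latent TGF-β to fibrillin and fibronectin in the matrix, lies on chromosome 17 from 75005568 to 75392512. It was at 13.9, 14.9 and 16.1 RPKM in the control and at 2.35, 3.34 and 4.92 RPKM in the siRNA libraries. Every siRNA library was below every control library. The means differed 4.23-fold, and limma gave a log2 fold change of -1.85 (SE 0.18, adjusted p = 0.000118).

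Ltbp2, which shares the domain structure of the family but does not bind latent TGF-β, lies on chromosome 12 from 84783212 to 84876532. It was at 10.995, 11.2 and 14.1 RPKM in the control and at 3.91, 4.84 and 7.79 RPKM in the siRNA libraries. The groups were separate although siRNA replicate 3 came closest to the controls. The means differed 2.19-fold, and limma gave a log2 fold change of -1.04 (SE 0.20, adjusted p = 0.00365). With each gene's own variance and no moderation the adjusted p was 0.051, the highest of 17 alternatives, of which the lowest was 0.00013.

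Ltbp3, which binds latent TGF-β and is known for its role in skeletal growth, was the exception. It lies on chromosome 19 from 5740904 to 5758532. It was at 19.0, 19.1 and 23.1 RPKM in the control and at 19.3, 19.2 and 21.0 RPKM in the siRNA libraries, and the groups overlapped. Its log2 fold change was -0.034 (95% interval -0.24 to 0.17, adjusted p = 0.774 from limma), and its sign turned with median ratio scaling (0.079), with quantile normalization (0.093) and without control replicate 3 (0.054). Ltbp4, the remaining family member, named after its values had been seen, was at most 0.648 RPKM in any library. Ltbp3 made up 42.5% ± 0.506 (SD, n = 3) of the summed RPKM of Ltbp1 to Ltbp4 in the control group and 68.3% ± 6.90 (SD, n = 3) in the siRNA group.

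The order of levels differed between the groups. In the control group, from high to low mean RPKM, the order was Tgfb1, Tgfbr2, Tgfb3, Tgfbr1, Eng, Ltbp3, Ltbp1, Ltbp2, Tgfbr3 and Tgfb2, where, of genes next to each other in the order, the libraries of Tgfbr1 and Eng, of Eng and Ltbp3, and of Ltbp1 and Ltbp2 overlapped, and beyond neighbours those of Tgfbr1 and Ltbp3. In the siRNA group it was Tgfb1, Tgfbr2, Tgfbr1, Ltbp3, Eng, Ltbp2, Tgfb3, Ltbp1, Tgfb2 and Tgfbr3, where the neighbours Ltbp2 and Tgfb3, Tgfb3 and Ltbp1, and Tgfb2 and Tgfbr3 overlapped, and beyond neighbours Ltbp2 and Ltbp1. In all 6 genes that fell, replicate 3 was the highest library of the control group and also of the siRNA group. The same held for Ltbp3, which was not called. It held for Tgfbr1 in the siRNA group only, for Tgfbr2 in the control group only and for Tgfb1 in neither. How many of all genes tested show this order was not counted, so it is not particular to the genes that fell. Among the marker lists, siRNA replicate 3 had the highest stromal sum of its group, also without Ly6a. In the control group replicate 1 had the highest stromal sum (349.9 against 336.6 RPKM in replicate 3). Without Ly6a, however, control replicate 3 had it (204.1 against 182.0 RPKM in replicate 1). Replicate 3 of both groups had the lowest macrophage sum.

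Beyond the 10 genes, the signal transducers and their regulators were examined as a list of 13 genes, of which 5 fell, 3 rose and 5 did not pass the test, beside 29.8% lower and 14.7% higher over all genes tested, with a median log2 fold change of -0.17 beside -0.087. Smad3 fell, from 9.21, 9.25 and 11.4 RPKM in the control libraries to 2.96, 3.38 and 4.15 RPKM in the siRNA libraries (log2 fold change -1.29, SE 0.12, adjusted p = 0.000103 in limma). Smad2, the other receptor-regulated SMAD of the pathway, was at 6.78 ± 0.155 RPKM (SD, n = 3) and 7.52 ± 0.0942 RPKM (SD, n = 3), and limma gave a log2 fold change of 0.13 (95% interval -0.038 to 0.30, adjusted p = 0.181). Smad2 was called higher with median ratio scaling (adjusted p = 0.0307), quantile normalization (adjusted p = 0.0149) and each gene's own variance (adjusted p = 0.0136), whereas its adjusted p reached 0.518 over 17 alternatives. The ratio of Smad2 to Smad3 was between 0.587 and 0.753 in the control and between 1.801 and 2.57 in the siRNA libraries, so the libraries of the groups did not overlap in this ratio. Smad4, the common partner, fell by 0.27 on the log2 scale (adjusted p = 0.00781 from limma), a call lost with median ratio scaling (log2 fold change -0.16, adjusted p = 0.0667) and with quantile normalization (log2 fold change -0.14, adjusted p = 0.0903).

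The inhibitors did not move as a group. Smad7, an inhibitory SMAD induced by TGF-β itself, fell from 10.6 to 6.84 RPKM on average (log2 fold change -0.56, adjusted p = 0.00426 from limma), whereas Smad6, which acts mainly on the BMP arm, was at 15.7 ± 1.1 and 14.4 ± 1.3 RPKM (SD, n = 3; adjusted p = 0.296). Pmepa1, a TGF-β-induced gene whose product sequesters SMADs, fell from 18.3 to 5.68 RPKM, a log2 fold change of -1.56 (adjusted p = 0.00015 from limma). The ubiquitin ligase gene Smurf1 fell by 0.38 on the log2 scale (adjusted p = 0.0102; -0.24 under quantile normalization), and Smurf2 was at 26.1 and 22.8 RPKM (adjusted p = 0.135), although it was called lower without siRNA replicate 3 (adjusted p = 0.01, against up to 0.515 over 17 alternatives). Bambi, a pseudoreceptor, rose from 1.90 to 4.21 RPKM (log2 fold change 0.85, adjusted p = 0.000731 from limma).

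Of the nuclear corepressor genes, Tgif1 and Ski were called higher and Skil was not called. Tgif1 was at 36.6 RPKM in the control and 44.1 RPKM in the siRNA group (adjusted p = 0.0194 from limma), a call lost without siRNA replicate 1 (adjusted p = 0.0689), without siRNA replicate 3 (adjusted p = 0.0561) and with each gene's own variance (adjusted p = 0.063), in 3 of 17 alternatives. Ski was at 24.8 and 31.2 RPKM (adjusted p = 0.0203), and its call was lost in 6 of 17 alternatives. These were the fits without control replicate 1 (adjusted p = 0.0569), control replicate 2 (0.076), siRNA replicate 1 (0.0653) or siRNA replicate 3 (0.0552), with each gene's own variance (0.0854) and with every library rescaled to the same sum (0.0961). Skil was at 20.5 and 24.9 RPKM and just missed the threshold (adjusted p = 0.0529). Skil was called higher with the replicate block (adjusted p = 0.0316), without control replicate 3 (adjusted p = 0.022) or siRNA replicate 2 (adjusted p = 0.0316), and with median ratio scaling (adjusted p = 0.0111) or quantile normalization (adjusted p = 0.013), and its adjusted p reached 0.181 over 17 alternatives. Zfyve9, the SMAD anchor SARA, was at 3.53 and 3.03 RPKM (adjusted p = 0.175).

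Of 16 genes of latency and activation, 13 were tested, of which 7 fell, 1 rose and 5 did not pass the test, beside 29.8% lower and 14.7% higher over all genes tested (median log2 fold change -0.29 beside -0.087). Lrrc32, or GARP, which holds latent TGF-β at the cell surface, fell from 36.2 ± 3.57 to 5.55 ± 1.91 RPKM (SD, n = 3), a log2 fold change of -2.54 (adjusted p = 3.08e-05 from limma). Fbn1, the fibrillin to which latent binding proteins attach, fell from 35.9 to 7.02 RPKM (log2 fold change -2.21, adjusted p = 9.93e-05). Thbs1, a thrombospondin that activates latent TGF-β, was the most abundant gene of the list in the control libraries and fell from 569.4 to 169.0 RPKM (log2 fold change -1.75, adjusted p = 0.000115). By contrast Nrros, which holds latent TGF-β on macrophages and microglia, was at 79.4 ± 3.35 and 77.8 ± 0.265 RPKM (SD, n = 3; adjusted p = 0.708), and the integrin gene Itgb5 rose from 135.6 to 227.4 RPKM (log2 fold change 0.74, adjusted p = 6.48e-05). Nrros and Itgb5 were singled out after their values had been seen.

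**Figure D3:**
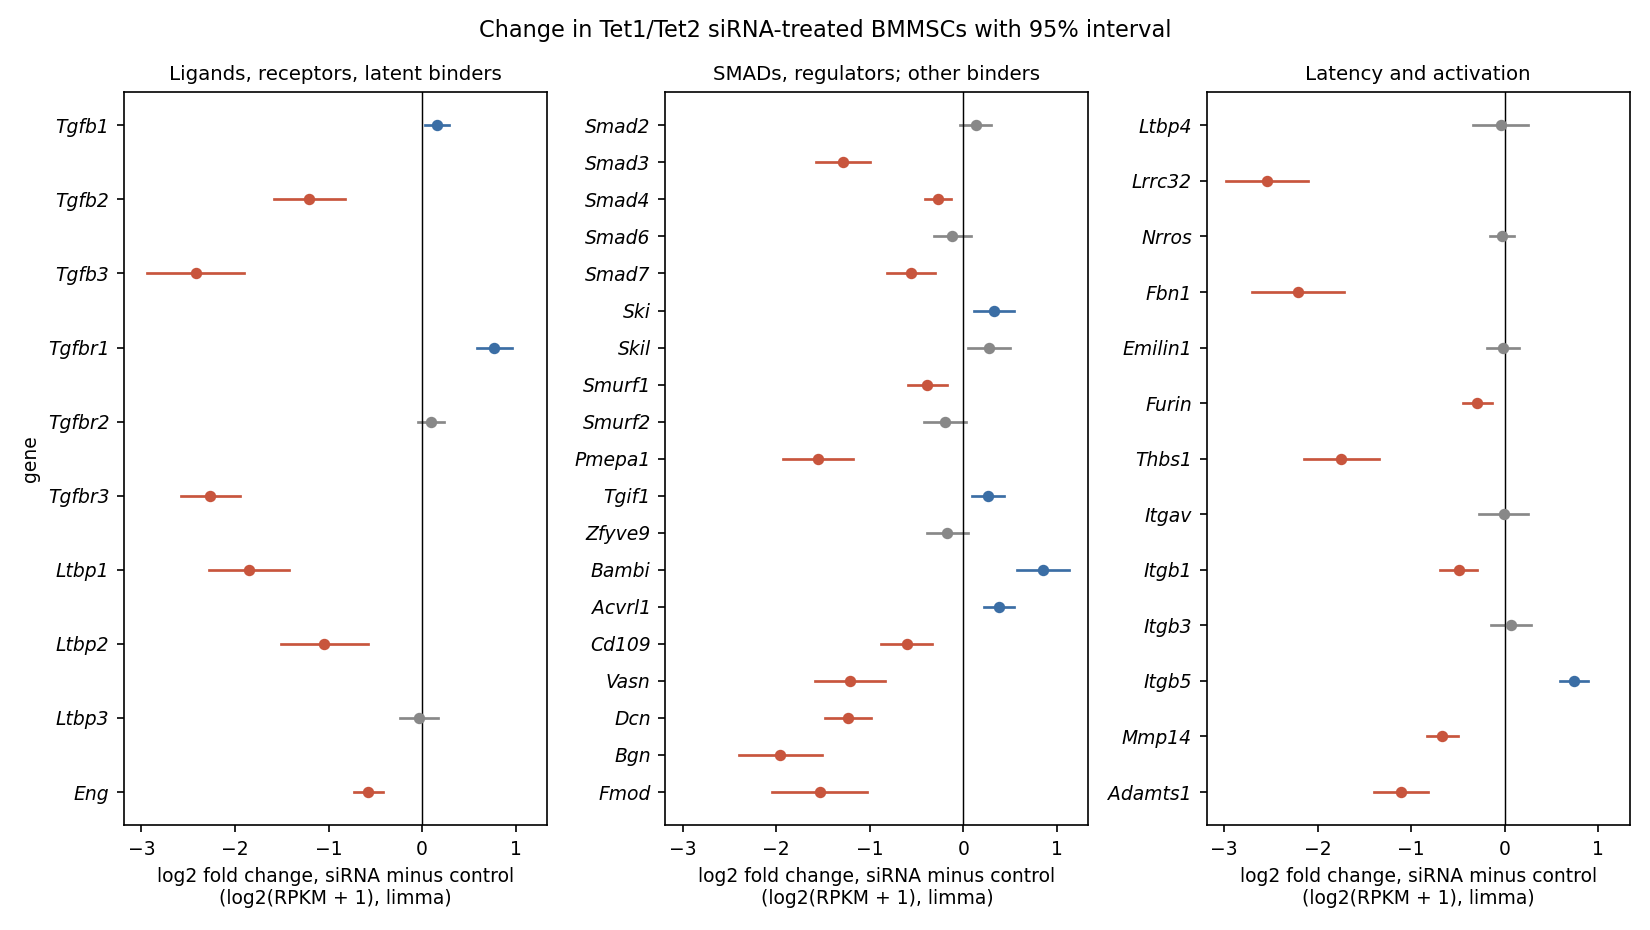
Log2 fold change of RPKM plus 1 (siRNA minus control, points) with its 95% interval from limma (lines) for the 10 TGF-β genes, for SMADs, regulators and other binders, and for genes of latency and activation. Red marks genes called lower, blue genes called higher and grey genes that did not pass the test, and Tgfb3, Tgfbr3, Lrrc32 and Fbn1 lie beyond -2.

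Of 6 other receptors and proteoglycans that bind TGF-β, 5 fell and 1 rose, with a median log2 fold change of -1.22. Over all genes tested 29.8% were lower and 14.7% higher, with a median of -0.087. The small proteoglycan genes fell, with Bgn going from 314.6 to 82.8 RPKM, Fmod from 6.08 to 1.53 RPKM and Dcn from 3.48 to 0.913 RPKM, with log2 fold changes of -1.96, -1.54 and -1.23 (adjusted p = 0.000107, 0.000793 and 5.76e-05 from limma). For Dcn, also near 1 RPKM, it was -1.94 with a pseudocount of 0.01. The gene that rose was Acvrl1, the type I receptor ALK1 that pairs with endoglin, which went from 9.95 to 13.2 RPKM (adjusted p = 0.00302), and which is named as the single exception after its value had been seen.

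Genes widely used as TGF-β responsive in fibroblasts made up a list of 28, all tested. Of these, 22 fell, 1 rose and 5 did not pass the test, with a median log2 fold change of -1.60, where of all genes tested 29.8% were lower and 14.7% higher, with a median of -0.087. Postn, a matricellular protein gene, fell from 36.5 to 3.60 RPKM (log2 fold change -3.10, adjusted p = 4.7e-05), and the collagen genes Col3a1 and Col1a1 fell from 124.6 to 14.1 RPKM and from 488.4 to 72.1 RPKM (log2 fold changes -3.10 and -2.78, adjusted p = 5.52e-05 and 0.000122). Acta2, smooth muscle actin and the most abundant gene of the list in the control libraries, fell from 787.7 ± 57.6 to 156.5 ± 42.5 RPKM (SD, n = 3). The gene that rose was Angptl4, a secreted inhibitor of lipoprotein lipase, from 9.08 to 20.6 RPKM, named as the exception after its value had been seen. Many of these genes are also abundant in fibroblasts in general, and the 3 stromal markers with the largest change, Ly6a, Cxcl12 and Pdgfra, had log2 fold changes of -3.20, -3.00 and -2.48, beside a median of -1.54 over the 11 stromal markers tested, 2 of which were not called, and 1.67 for Vcam1. The part of the stromal change in the count of TGF-β responsive genes was not tested.

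Markers of megakaryocytes and lymphocytes were looked at because platelets are rich in TGF-β1. Of 10 such genes, 7 were under 0.1 RPKM in every library, and Cd3g and Ncr1 stood at the lowest listed value throughout. Of the 3 tested, 1 was higher, 1 was lower and 1 was not called, too few to set against the 14.7% higher and 29.8% lower over all genes tested. Pf4, the most abundant and also known from macrophages, rose from 235.1 to 603.3 RPKM (adjusted p = 0.000228 from limma), while Gp1bb fell from 0.694 to 0.141 RPKM (adjusted p = 0.00126).

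The genes whose pattern over the 6 libraries was most like that of Tgfb3 and Tgfbr1 were sought by the root mean square difference of log2 values, each gene centred on its mean. For Tgfb3 these were Amotl2, Fstl1 and Sdc2, with differences of 0.0393, 0.0479 and 0.0695. Amotl2 was at 30.3, 28.4 and 34.4 RPKM in the control and 3.37, 5.05 and 7.95 RPKM in the siRNA libraries. For Tgfbr1 they were Slc8a1, Rhoq and Itga4, with differences of 0.0329, 0.0336 and 0.0385. These likenesses are a description over 6 libraries in 2 groups.

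Since TET enzymes act on methylated cytosine at CpG sites, the CpG content of the promoters was described from RefSeq sequences on GRCm38.p6 that span 250 bases before to 50 bases after a transcript start. For 8 of the 10 genes a sequence was found, in 10 windows, since Tgfbr1 and Ltbp1 have 2 each. Sequences of Tgfb3 and Tgfbr3 were not used here. The median promoter of the 32851 in the table held 7 CpG. Of the genes called higher, the upstream window of Tgfbr1 held 34 CpG and the only window of Tgfb1 held 30. Of all promoters, 92.3% and 88.3% fell short of these counts. The call of Tgfb1 was lost in 7 of 17 alternative fits. Among genes that fell, Ltbp2 had 20, the upstream start of Ltbp1 17, Tgfb2 10 and Eng 6, whereas Tgfbr2 had 15 and Ltbp3 3. The second windows of Ltbp1 and Tgfbr1 held 7 and 3. RPKM per gene does not tell which start was used, no methylation was measured in these libraries, and with so few genes no relation to the changes was tested.

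The promoters of a ligand and a receptor that rose, and of a ligand and a latent binder that fell, are shown 5′ to 3′ on the gene's strand, with each CpG in capitals, to let the CpG content be compared. They are Tgfb1 (chr7:25686752-25687051, plus strand), Tgfbr1 (chr4:47352972-47353271, plus strand), Tgfb2 (chr1:186705940-186706239, minus strand) and Ltbp1 (chr17:75005279-75005578, plus strand).
Tgfb1: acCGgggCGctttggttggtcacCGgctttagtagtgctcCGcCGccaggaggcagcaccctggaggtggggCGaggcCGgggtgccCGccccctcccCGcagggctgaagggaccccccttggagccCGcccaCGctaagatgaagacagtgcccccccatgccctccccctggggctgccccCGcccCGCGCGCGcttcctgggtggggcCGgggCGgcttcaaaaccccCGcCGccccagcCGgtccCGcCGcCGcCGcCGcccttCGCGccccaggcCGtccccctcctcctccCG
Tgfbr1: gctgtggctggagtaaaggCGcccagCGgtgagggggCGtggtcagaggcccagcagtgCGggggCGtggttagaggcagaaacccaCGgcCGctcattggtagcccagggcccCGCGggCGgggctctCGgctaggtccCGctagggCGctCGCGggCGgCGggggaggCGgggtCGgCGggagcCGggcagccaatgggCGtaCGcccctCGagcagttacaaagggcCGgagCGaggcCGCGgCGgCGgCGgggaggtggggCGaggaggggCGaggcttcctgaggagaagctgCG
Tgfb2: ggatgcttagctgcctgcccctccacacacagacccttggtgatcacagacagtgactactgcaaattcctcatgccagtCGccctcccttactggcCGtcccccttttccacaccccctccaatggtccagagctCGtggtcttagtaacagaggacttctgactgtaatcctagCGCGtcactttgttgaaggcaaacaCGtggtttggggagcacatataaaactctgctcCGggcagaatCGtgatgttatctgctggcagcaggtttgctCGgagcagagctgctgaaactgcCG
Ltbp1: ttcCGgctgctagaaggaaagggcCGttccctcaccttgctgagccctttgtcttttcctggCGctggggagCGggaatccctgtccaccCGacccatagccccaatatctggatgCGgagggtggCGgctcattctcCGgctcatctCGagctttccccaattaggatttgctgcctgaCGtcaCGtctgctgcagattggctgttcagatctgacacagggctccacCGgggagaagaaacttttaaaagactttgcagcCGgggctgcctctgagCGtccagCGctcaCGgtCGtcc
The Smad box CAGAC, searched on both strands, was in 8 of the 10 windows and in 49.6% of all promoters. The window of Tgfb1 and the upstream window of Tgfbr1 were those without it. TATAAA was in 1 window, that of Tgfb2, against 13.6% of all promoters, and the AP-1 motif TGANTCA in 1 window, that of Ltbp3, against 7.81%, each on either strand. Overlaps between matches were not counted, and a match describes letters only.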

How the data were processed

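RNA-seq libraries of 3 control and 3 Tet1/Tet2 siRNA-treated BMMSC samples were used. After adaptor trimming, the authors mapped reads to GRCm38 with DNASTAR Lasergene and deposited RPKM per gene on a linear scale (FPKM in the methods). Annotation release, strand use and multiply mapped reads are not given in the sources used here. A column with the p-value of the authors' own comparison was not used. Of 37 symbols listed repeatedly, none of them in the lists here, only the most abundant row entered. A minimum mean of 0.1 RPKM over the 6 libraries was required, and log2(RPKM + 1) was compared between groups, two-sided, in limma 3.58.1 under R 4.3.3 (eBayes with trend). An exact permutation of 3 against 3 libraries cannot give a p under 0.1. The fit was tested on simulated data. Read totals were estimated (Python 3.11.15 with pandas 2.3.3 and numpy 2.4.6) from low values of single-transcript genes of GENCODE M21, which is also the source of gene positions. Between 54.0% and 57.5% of these lay within 0.1 of a whole read, beside 20% by chance at a fixed depth, so no count test was run. Replicate numbers are shared by the groups in the labels. Across genes, deviations of same-numbered libraries from their group means correlated with r of 0.149, 0.117 and 0.462, each above 0.1, and a fit with a replicate block was added on that ground. The pairing rests on these values only, and control 1 with siRNA 2 (0.332) and control 2 with siRNA 1 (0.205) correlated more than the same-numbered libraries 1 and 2.

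The genes and lists were chosen with earlier results of these data known. The genes named are the 10 TGF-β genes, the Tet genes, the 13 SMADs and regulators, from each other list the 3 called genes with the largest change and the most abundant gene by the mean of both group means, and the 3 genes most like Tgfb3 and Tgfbr1; others are named as chosen after their values were seen, or as single members of a count. Alternatives were pseudocounts of 0.1 and 0.01, no filter or a minimum mean of 1 RPKM, rescaling to the same sum, median ratio scaling, quantile normalization, eBayes without trend, gene-wise variance, the replicate block, each library left out, summed rows of a symbol, and 2 other call rules.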

Additional observations from a re-analysis of the deposited data

How the results depend on the processing

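Tgfb2, Tgfb3, Tgfbr1, Tgfbr3, Ltbp1 and Eng had the same direction and were called in all 17 alternative fits, and Ltbp2 in 16 of 17. The number of the 10 genes called higher, 2, became 1 with rescaling to the same sum and with eBayes without trend and 3 under median ratio scaling, and ranged from 1 to 3 when 1 library was left out. It was 0 in limma under both other call rules, an adjusted p under 0.05 with a change over 2-fold on the log2 scale and an unadjusted p under 0.05 with group means over 2-fold apart, beside 2 at an unadjusted p under 0.05 alone. These 2 call rules, of which the latter differs in both the p and the fold, gave 873 and 1930 genes in place of 5905, of which 85.6% and 81.4% were lower in place of 66.9%. The share lower was 74.1% with rescaling to the same sum, 50.9% under median ratio scaling and 42.1% under quantile normalization, which shifted the all-gene median by 0.14 on the log2 scale, to 0.055. The log2 fold change of Ltbp3, never called, was 0.079 under median ratio scaling, 0.093 under quantile normalization and between -0.079 and 0.054 when 1 library was left out. Quantile normalization also gave 0.025 for Smad6 and 0.034 for Zfyve9, neither called. The cause was not tested. With the replicate block 6716 genes were called, and among the 10 genes 6 lower and 2 higher; of the genes tested that the naming rule took, only Skil changed its call. Over the genes of that rule, 845 of the values held direction and call, 21 lost the call, 11 gained it and 5 changed sign. Of the genes named outside it, Vcam1, Itgb5, Acvrl1 and Angptl4 were called higher in all 17 alternative fits, whereas Nrros and Ltbp4 were never called and changed sign in 2 of 17 and 3 of 16. Read totals are estimates, and 3 libraries a group limit what small differences, such as that of Tgfb1, can show.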
